A study of Mus musculus with 2 samples.

Results

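The collagen chain genes are the genes whose array name reads Col, a number, a and a number, such as Col1a1. That rule matched 44 genes and 69 probes of the 39429 probes that are not controls. It uses no measured value, and it leaves out Col4a3bp, whose name starts alike but which encodes a ceramide transfer protein. Enough signal for a test was present in 40 of the 44 genes, out of 20104 genes tested. Col4a3, Col10a1, Col19a1 and Col28a1 were not well above background, with highest levels of 6.51, 6.36, 6.81 and 6.41 in log2 intensity, and no ratio is given for them.

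RNA was taken from dissected ureters of NMRI mouse embryos at E14.5 and read on 2 two-colour Agilent arrays, each holding a knockout and a control sample in different dyes. Knockout embryos carried Pax-cre/+;Smad4(fl/fl) in the sample labels, spelt Pax2-cre/+ in the series title, and are abbreviated there to Smad4cKO (UE). Controls were Smad4(fl/?), so every sample held at least 1 floxed allele and the second control allele is not given. Replicate 1 compared females, with the knockout in Cy3 and the control in Cy5, and replicate 2 compared males with the dyes exchanged. Sex and dye therefore cannot be told apart. The number of embryos per sample is not given in those labels. Whole ureters were dissected, so the RNA comes from all tissue layers and not only from the cells in which cre is active.

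Collagens are the main structural proteins of extracellular matrix. Chains assemble in groups into a triple helix, and the combinations of chains define the types: type I from Col1a1 and Col1a2, type IV mostly from Col4a1 and Col4a2, type VI from Col6a1, Col6a2 and a further chain such as Col6a3. Fibrillar types give tissue its tensile strength, fibril-associated types coat the fibrils, and type IV forms the network of basement membranes. In the developing ureter the mesenchyme around the epithelial tube makes most fibrillar collagen, and a basement membrane lies between the layers. SMAD4 is the shared partner of the SMAD proteins that carry TGF-beta and BMP signals, and collagen genes are known targets of TGF-beta signalling in fibroblasts.

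A triple helix is built on a repeat of glycine and a pair of other residues, and the codons of glycine start with GG, so the helical part of a collagen transcript repeats GG at every 9 bases. Probes that lie in this repeat share its period with the transcripts of other chains, which is why they are shown. A run of at least 4 GG codons spaced by 9 bases was present in 4 of the 69 collagen probes (5.80%) and in 39 of all 39429 probes (0.0989%); the minimum of 4 was chosen after the sequences were seen. All 4 passed the filter. They are given 5′ to 3′ as deposited, with the glycine codons of the run in capitals, on mm9 at chr15:55347733-55347792 for Col14a1, chr4:47283786-47283845 for Col15a1, chr4:129756457-129756516 for Col16a1 and chr3:130270497-130270556 for Col25a1, all on the plus strand.
Col14a1: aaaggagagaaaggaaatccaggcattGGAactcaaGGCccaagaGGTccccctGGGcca
Col15a1: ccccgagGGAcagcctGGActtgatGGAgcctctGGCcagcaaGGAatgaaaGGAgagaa
Col16a1: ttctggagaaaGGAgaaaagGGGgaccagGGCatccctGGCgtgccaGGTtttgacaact
Col25a1: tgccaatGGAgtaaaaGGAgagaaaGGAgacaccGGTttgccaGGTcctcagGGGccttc

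No collagen chain gene passed the test, yet most read slightly lower in the channels labelled knockout. Values are log2 ratios of labelled knockout over labelled control, so that a negative value means less signal in labelled knockout. The direction follows the dyes in the labels. The authors' deposited table of signed folds would run the other way if its titles, which put the knockout first, set the direction: it gives Col1a1 as 1.43 on replicate 1 and 1.35 on replicate 2. At an adjusted p of 0.05 in limma (Benjamini-Hochberg over 20104 genes), 0 of the 40 collagen chain genes were called, beside 0.328% of all genes (66). The lowest adjusted p was 0.326, for Col1a1. At an unadjusted p of 0.05, limma gave 11 of the 40 as lower in labelled knockout and 0 as higher, beside 2.46% and 2.09% of all genes. The count of 11 depends on the scaling: in either direction it was 6 with Agilent's processed signals or the authors' deposited values, and 0 with median centring in place of loess. With 2 arrays, a gene's own spread between the arrays gave 1 residual degree of freedom. The variance behind these p-values came mostly from all genes together, with 9.21 prior degrees of freedom. They measure no spread beyond that between these arrays, whose origin in separate litters is not given.

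By direction alone, the mean of both arrays lay below 0 in 36 of the 40 collagen genes, beside 51.6% of all genes. On both arrays, 25 of the 40 lay below 0, beside 24.6% of all genes, and 2 lay above 0 (Col4a5 and the dim Col6a5), beside 21.7%. The other 13 had opposite signs. The median over the 40 was -0.19 on replicate 1, -0.17 on replicate 2 and -0.18 for the mean, while all genes tested had medians of -0.0093, -0.0034 and -0.0044. None was at least 1.5-fold lower on each array, as 0.104% of all genes were. In whole-tissue RNA, fewer cells that make a collagen and less of its RNA per cell cannot be told apart.

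**Figure D1:**
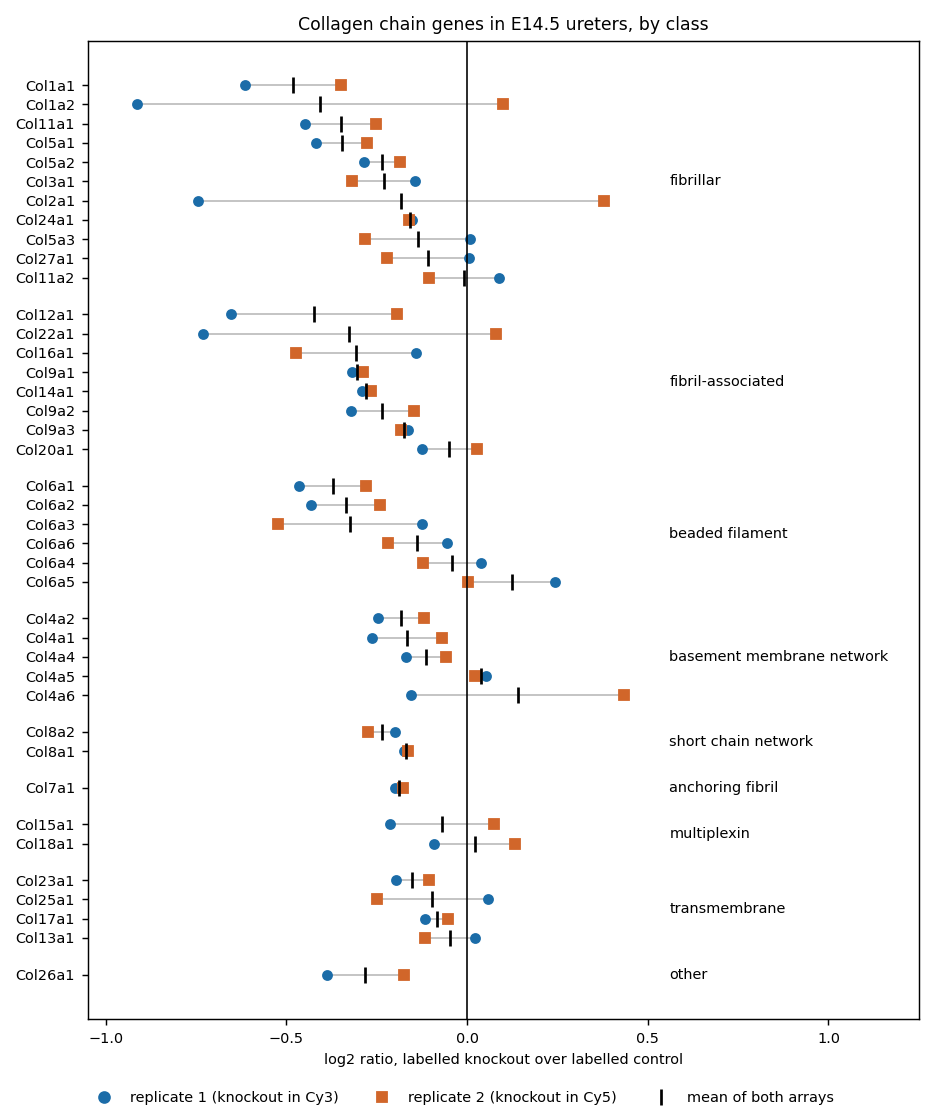
Log2 ratio of labelled knockout over labelled control for the 40 collagen chain genes tested, grouped by structural class; the circle is replicate 1, the square replicate 2 and the bar their mean. Most pairs of points lie left of 0, with Col1a1 at -0.61 and -0.35, and 13 pairs cross 0.

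The level of a gene in a channel is given as log2 normalised intensity after loess and Aquantile normalisation; levels of different probes are not on a common scale. Both knockout levels lay below both control levels in 16 of the 40 collagen genes, beside 15.3% of all genes. Among the 11 fibrillar chains, all 11 had a mean below 0 and 6 lay below 0 on both arrays, with a class median of -0.23. Col1a1, which encodes the main chain of type I collagen, read 16.19 and 16.38 in labelled knockout and 16.81 and 16.72 in labelled control on replicates 1 and 2. Both knockout values were below both control values. Its ratios were -0.61 and -0.35, with a mean of -0.48 ± 0.19 (SD, n = 2 arrays), a 95% interval of -0.76 to -0.20 and an adjusted p of 0.326 in limma. That mean is 1.40-fold, or 28.4% lower in labelled knockout. Its single probe lies on mm9 at chr11:94813115-94813174.

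Col3a1, the chain of type III collagen, which forms fibrils with type I, read 16.72 and 16.53 in labelled knockout against 16.86 and 16.85 in labelled control, and the groups did not overlap. Its mean ratio was -0.23 ± 0.12 (n = 2, limma adjusted p = 1.00). Col5a1, a chain of the type V collagen that starts fibril assembly, read 14.91 and 14.63 against 15.33 and 14.90. It was lower within each array, but the knockout level of replicate 1 exceeded the control level of replicate 2. The mean was -0.35 ± 0.10 (limma adjusted p = 0.784). Its partner Col5a2 read -0.28 and -0.19, and Col5a3 read 0.0072 and -0.28. Col11a1, a chain of the related type XI, read 10.52 and 10.53 against 10.97 and 10.78 without overlap, a mean of -0.35 ± 0.14 (limma adjusted p = 0.80). Col24a1 lay at -0.16 ± 0.0073, with one of the smallest spreads of the class, and Col27a1 and Col11a2 changed sign between the arrays, with means of -0.11 and -0.0083.

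Fibril-associated collagens, which sit on fibril surfaces and carry interrupted helices, had a class median of -0.29. All 8 tested had a mean below 0 and 6 were below 0 on both arrays. Col12a1, which binds type I fibrils, read 12.18 and 12.02 in labelled knockout against 12.83 and 12.22 in labelled control. Its groups did not overlap, and the ratio was larger on replicate 1 (-0.65) than on replicate 2 (-0.19), giving -0.42 ± 0.33 (limma adjusted p = 0.668). Col14a1, a relative that regulates fibril growth, read 14.53 and 14.40 against 14.82 and 14.66. It had nearly the same ratio on both arrays, -0.29 and -0.27, with a mean of -0.28 ± 0.02 (limma adjusted p = 1.00). Col16a1, a minor fibril-associated chain, read 15.61 and 15.28 against 15.75 and 15.75, a mean of -0.31 ± 0.23.

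The chains of type IX collagen, which decorates cartilage fibrils made of Col2a1, lay below 0 on both arrays. Col9a1 read 13.89 and 13.77 in labelled knockout against 14.21 and 14.06 in labelled control without overlap, a mean of -0.30 ± 0.02 (limma adjusted p = 0.968). Col9a2 read -0.32 on replicate 1 and -0.15 on replicate 2 (mean -0.24 ± 0.12), and Col9a3 had a mean of -0.17 ± 0.01. Of 7 cartilage markers, Matn1, Matn3 and Comp were not well above background. Acan, the core proteoglycan of cartilage, read between 7.06 and 7.22 over the 4 channels and Cnmd between 6.61 and 6.96, where the lowest level of any tested probe was 6.44. The 4 cartilage markers tested had a median of -0.17 (Sox5 -0.31, Cnmd -0.23, Acan -0.10 and Hapln1 0.10, the last with 0.25 and -0.06 on the arrays), with mean channel levels of 10.30 to 10.32 in labelled knockout and 10.44 to 10.45 in labelled control. Those mean levels are raised by Sox5, which read between 16.06 and 16.47. The part of the cartilage markers in the values of type IX was not tested.

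Type VI collagen, which forms beaded filaments around cells, showed lower values in its 3 common chains. Col6a1 read 15.48 and 15.32 in labelled knockout against 15.95 and 15.59 in labelled control. The groups did not overlap, and the mean was -0.37 ± 0.13 (n = 2, limma adjusted p = 0.668). Col6a2 read 12.83 and 12.58 against 13.26 and 12.82, with a small overlap between arrays and a mean of -0.34 ± 0.13 (limma adjusted p = 0.868). Col6a3 read 14.95 and 14.44 against 15.08 and 14.97 without overlap. Here the larger ratio was on replicate 2 (-0.52, against -0.13), and the mean was -0.32 ± 0.28 (limma adjusted p = 1.00). The alternatives to Col6a3 had smaller mean ratios: Col6a4 -0.04, Col6a5 0.12 and Col6a6 -0.14. Col6a6 was lower in labelled knockout on both arrays at -0.06 and -0.22 without overlap, while its other kept probe read 0.04 and -0.39. Col6a5 was higher in labelled knockout on both arrays at 0.24 and 0.0033. Col6a4 and Col6a5 were dim, with levels of 7.03 to 7.15 and 6.93 to 7.17, where the lowest level of any tested probe was 6.44. On replicate 1, only 1 of 4 control spots of Col6a5 was well above background. Such values cannot show whether these 2 chains changed.

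CAGAC, the core of the SMAD-binding element, was looked for on either strand (GTCTG on the other) from 250 bases before to 50 bases after each start in RefSeq promoters on GRCm38.p6. Of all 32851 promoters of that length, 49.6% held it. A promoter was found for 35 of the collagen genes, 38 promoters in all, of which 20 held it (52.6%). Among collagen genes below 0 on both arrays it was in 12 of 21 promoters (57.1%), and among the other tested ones in 6 of 14 (42.9%). Those 21 promoters belong to 19 of the 25 genes below 0 on both arrays, with more than 1 each for Col6a2 and Col9a1. No promoter was found for Col1a1, Col12a1, Col14a1, Col26a1, Col5a2 and Col9a3. Col1a1 and Col12a1 had the lowest means of the collagen genes, so the comparison leaves out the most lowered chains. The remaining 3 promoters, 2 of them with a match, belong to Col10a1, Col19a1 and Col28a1, which had no tested ratio. The groups are small, the shares were not tested against each other, and a match in this window says nothing of binding. The 250 bases before the start are shown for 3 chains that were below 0 on both arrays, to show that they differ in this motif: Col5a1 with 1 match, Col6a1 with 0 and Col6a3 with 2. Matches are in capitals, read on the gene's strand, on GRCm38.p6 at chr2:27886175-27886424 (plus), chr10:76726045-76726294 (minus) and chr1:90843972-90844221 (minus).
Col5a1: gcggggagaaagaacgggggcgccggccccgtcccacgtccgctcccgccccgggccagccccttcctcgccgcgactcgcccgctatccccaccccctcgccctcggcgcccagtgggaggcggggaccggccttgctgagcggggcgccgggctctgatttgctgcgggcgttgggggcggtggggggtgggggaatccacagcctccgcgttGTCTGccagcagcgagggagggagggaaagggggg
Col6a1: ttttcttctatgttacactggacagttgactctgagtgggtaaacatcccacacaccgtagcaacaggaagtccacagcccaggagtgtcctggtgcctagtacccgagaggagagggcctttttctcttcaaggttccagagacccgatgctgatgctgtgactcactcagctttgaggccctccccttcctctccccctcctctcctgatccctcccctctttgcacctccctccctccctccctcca
Col6a3: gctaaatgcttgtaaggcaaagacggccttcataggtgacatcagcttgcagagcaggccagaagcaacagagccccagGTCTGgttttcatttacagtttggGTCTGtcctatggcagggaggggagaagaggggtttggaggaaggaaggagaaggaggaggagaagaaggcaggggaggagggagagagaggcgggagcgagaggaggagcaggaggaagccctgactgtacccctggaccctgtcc

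Basement membrane chains had a class median of -0.11 over 5 of 6 chains, 3 of them with a mean below 0. That median is the value of Col4a4, a dim gene with levels of 7.60 to 7.77, whose other kept probe read 0.02 and 0.09. Col4a1 and Col4a2, which together form the common type IV network, read in parallel, near the median of -0.18 over all 40 collagen genes. Col4a1 read 13.53 and 13.32 in labelled knockout against 13.80 and 13.39 in labelled control, a mean of -0.17 ± 0.14. Col4a2 read 12.90 and 12.64 against 13.15 and 12.77, a mean of -0.18 ± 0.09. Both were lower within each array, with overlap between arrays, and both had a limma adjusted p of 1.00. Their RefSeq starts lie on opposite strands of chromosome 8, 21 bases apart. Col4a5 and Col4a6, a pair of chains found in basement membranes of smooth muscle and kidney, start 1343 bases apart on opposite strands of the X chromosome. Col4a5 read 0.05 and 0.02, while Col4a6 read -0.15 and 0.43.

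The remaining classes hold few chains. Col8a2, of the short chain network collagens that form hexagonal sheets, read 13.04 and 12.88 in labelled knockout against 13.24 and 13.16 in labelled control without overlap, a mean of -0.24 ± 0.05 (limma adjusted p = 1.00). Its other kept probe, which the stricter filter uses, read -0.09 ± 0.01. Its partner Col8a1 read -0.17 ± 0.0092. Col7a1, the chain of the anchoring fibrils under epithelia, read -0.20 and -0.18. The multiplexins Col15a1 and Col18a1, of which the latter is the source of endostatin, had means of -0.07 and 0.02. The Col15a1 value is that of its brightest probe, which lies in the glycine repeat and read -0.21 and 0.07. Its other kept probes, which share 48 bases, lay below 0 on both arrays (-0.40 and -0.21, -0.25 and -0.04). All 4 transmembrane chains had a mean below 0, from -0.15 for Col23a1 to -0.05 for Col13a1, but only 2 lay below 0 on both arrays. Col13a1 read 0.02 and -0.12, and Col25a1 read 0.06 and -0.25. Col17a1, a component of hemidesmosomes, lay at -0.08 ± 0.05. Col13a1 and Col17a1 were dim, with mean levels of 7.06 and 7.00. On replicate 2, only 1 of 4 knockout spots of Col17a1 was well above background. Col26a1, a short chain with an EMI domain, read 14.80 and 14.91 against 15.19 and 15.09 without overlap, a mean of -0.28 ± 0.15 (limma adjusted p = 1.00).

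**Figure D2:**
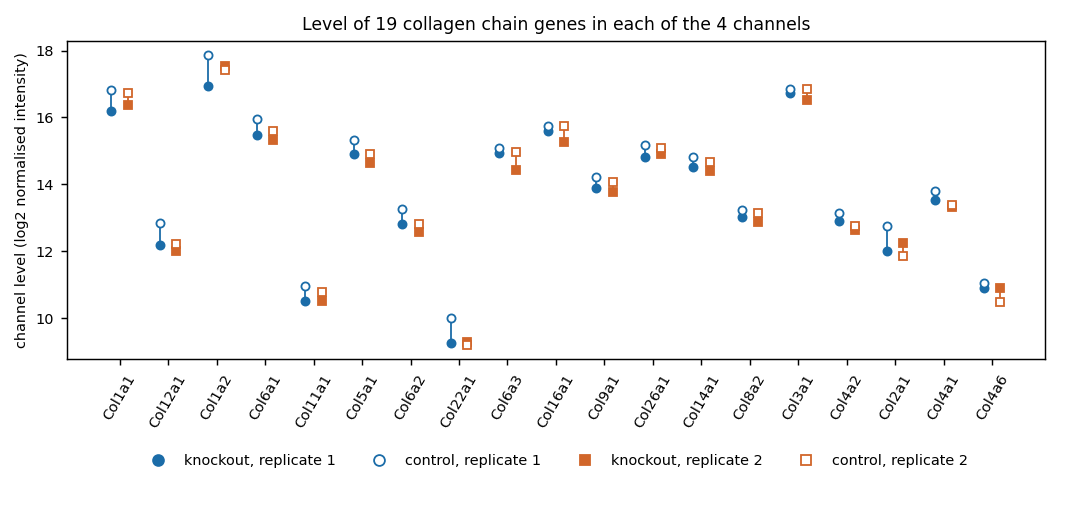
Level (log2 normalised intensity) of 19 collagen chain genes in the 4 channels, ordered by mean ratio; filled symbols are labelled knockout, open symbols labelled control, circles replicate 1 and squares replicate 2. Open symbols stand above filled ones within both arrays for most genes shown. The order turns on replicate 2 for Col1a2, Col22a1, Col2a1 and Col4a6. The agreement between arrays is largely set by the choice of genes, most of which were taken from those with the same sign on both arrays. Among all 40 collagen genes tested, 25 lay below 0 on both arrays and 13 had opposite signs.

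Col1a2, the partner chain of Col1a1 in type I collagen, did not repeat between the arrays. It read 16.95 in labelled knockout and 17.86 in labelled control on replicate 1, and 17.53 and 17.43 on replicate 2. The ratio was -0.91 on replicate 1 and 0.10 on replicate 2, and the mean of -0.41 ± 0.72 (limma adjusted p = 1.00) is carried by replicate 1. The spots of its probe agreed closely within each array, with SDs of 0.018 and 0.013, so the difference lay between arrays and not between spots. Col2a1, the main fibrillar chain of cartilage, read -0.74 and 0.38, and Col22a1, a fibril-associated chain of tissue junctions, read -0.73 and 0.08; these and Col4a6 were picked out after their values were seen. Of the 13 collagen genes with opposite signs, 7 were brighter in Cy5 on both arrays, Col1a2, Col2a1, Col22a1 and Col4a6 among them, and 6 were brighter in Cy3 on both. Over all 20104 genes tested, these counts were 5454 and 5334, so neither is particular to collagen genes.

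**Figure D3:**
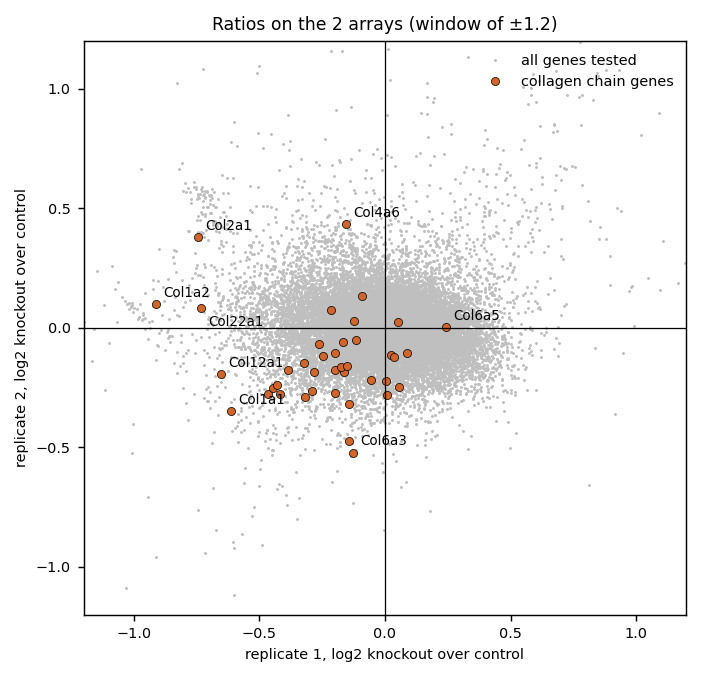
Log2 ratio on replicate 2 against replicate 1 for the collagen chain genes (large points) and all genes tested (small points) within ±1.2. Collagen genes gather at the lower left (25 of 40 below 0 on both), with Col1a2, Col2a1 and Col22a1 far left but above 0 on replicate 2.

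Over the 40 genes the ratios of the arrays did not rise together, with Pearson r = -0.13 and Spearman rho = 0.08, and over all genes tested r = 0.02 and rho = -0.08. This is a description across genes, which share the arrays and are not independent. The arrays shared a direction for most collagen chains, but not an order of size among them.

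More than 1 kept probe was present for 13 of the 40 collagen genes (31 probes), and in 10 of these all probes had a mean on one side of 0. The exceptions were Col4a4, Col4a6 and Col25a1. For Col4a6 the brighter probe read 0.14 and the other -0.03. The 25 genes below 0 on both arrays had 10 kept probes beside the chosen ones, of which 6 were below 0 on both arrays; the others were 1 probe each of Col16a1, Col23a1, Col4a4 and Col6a6. The largest difference between probes of a gene was in Col16a1, 0.31, where the probe in the glycine repeat shown above read -0.02 ± 0.12 and the others read -0.31 ± 0.23 and -0.33 ± 0.03. That repeat probe was also far dimmer, with levels of 7.41 to 7.66, against 15.28 to 15.75 and 12.72 to 13.30 for the others. Its low brightness and its place in the repeat cannot be told apart. In Col15a1 the repeat probe read -0.07 ± 0.20 and the others -0.15 and -0.31, which share 48 bases and so are not separate measurements. In Col14a1 the repeat probe read -0.25 ± 0.02, close to -0.28 for the other, and in Col25a1 it read -0.07 ± 0.01, within the range of its other probes from -0.10 to 0.03. The pair of Col26a1 probes, at -0.28 and -0.34, share 55 bases.

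**Figure D4:**
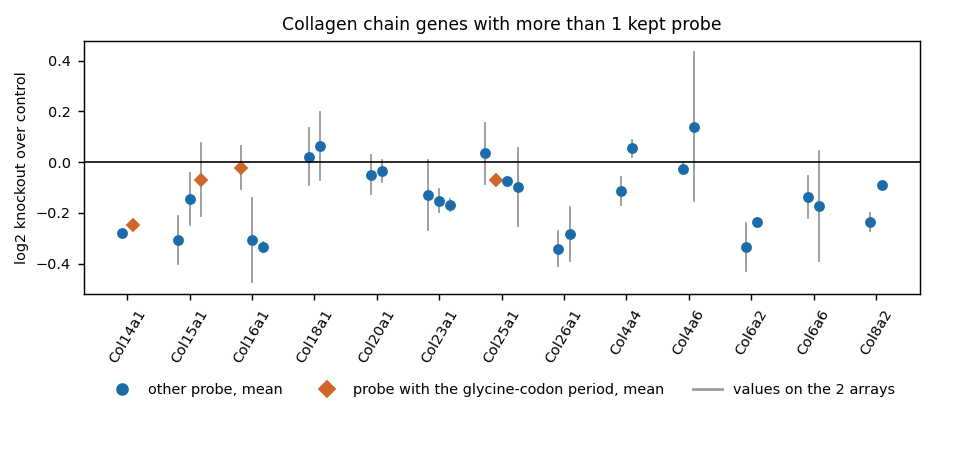
Mean log2 ratio of each kept probe for the 13 collagen chain genes with more than 1, with a line joining the values of both arrays; diamonds are the 4 probes in the glycine repeat. Probes of Col14a1, Col18a1, Col20a1 and Col23a1 lie within 0.05 of each other, and those of Col16a1 differ by 0.31.

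Ratios lay further below 0 among brightly measured chains, although most means were below 0 at either brightness. With a split at a mean level of 12, chosen after the values were seen, 20 collagen genes at or above it had a median of -0.28, with 19 means below 0 and 16 below 0 on both arrays, beside 26.3% of all genes that bright. The 20 dimmer ones had a median of -0.11, with 17 means below 0 and 9 below 0 on both arrays, beside 23.7% of the dimmer genes. The medians of all genes above and below the split were -0.0002 and -0.0058. Among the dimmer chains, Col17a1, Col13a1, Col6a5 and Col6a4 had mean levels of 7.00 to 7.11, near the lowest tested level of 6.44. The part of low signal, and of the offset of 50 added in background correction, in this difference was not tested.

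Proteins that make, cut and bind collagen were counted from lists of known genes, and none of their members passed the test. Of 19 genes for folding and modification in the endoplasmic reticulum, 13 had a mean below 0, beside 51.6% of all genes, with a median of -0.06. Signs were opposite on the arrays in 11 of the 19, and 7 lay below 0 on both, beside 24.6% of all genes. Fkbp10, a prolyl isomerase for procollagen, read -0.28 ± 0.14, Serpinh1, the collagen chaperone HSP47, -0.09 ± 0.05, and Sparc, a collagen-binding matrix protein, -0.84 and 0.29, in the pattern of Col1a2. Of 12 tested genes for processing and cross-linking, 10 had a mean below 0 (median -0.16) and 8 lay below 0 on both arrays, beside the same shares. Adamts2, which cuts the amino end of procollagen, read -0.31 ± 0.25, and the lysyl oxidase relatives Loxl2 and Loxl3 read -0.25 and -0.24, while Lox itself read 0.05.

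The small proteoglycans that bind fibrils did not share the direction of the chains in their means: 2 of 8 lay below 0, with a median of 0.03. This rested on replicate 1, with a median of 0.10 and 2 of 8 below 0. On replicate 2 the median was -0.02 and 5 of 8 lay below 0. Of the 8, 2 lay below 0 and 3 above 0 on both arrays, beside 24.6% and 21.7% of all genes. Decorin (Dcn) read 17.45 and 17.26 in labelled knockout against 17.06 and 17.07 in labelled control, higher on both arrays without overlap, a mean of 0.29 ± 0.14 (limma adjusted p = 1.00). Lumican (Lum) read 0.04 ± 0.02, podocan (Podn) -0.18 ± 0.09 and asporin (Aspn) 0.16 ± 0.24. Of 9 tested collagen receptors, 5 had a mean below 0 (median -0.12), but the medians on the arrays were 0.05 and -0.0089. Below 0 on both arrays lay 2 and above 0 on both 2, beside 24.6% and 21.7% of all genes. The endocytic receptor Mrc2 read -0.23 and the receptor kinase Ddr2 -0.21 ± 0.38 (0.06 and -0.47). Itgb1, the common beta chain of collagen-binding integrins, read 0.24. Of the basement membrane partners, all 4 had a mean below 0 (median -0.20), beside 51.6% of all genes. On both arrays 3 lay below 0, beside 24.6% of all genes. The 4 were the nidogens Nid1 (-0.35 ± 0.31) and Nid2 (-0.21 ± 0.02), perlecan (Hspg2, -0.18 ± 0.11) and agrin (Agrn, -0.12 ± 0.42).

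Collagen genes had mean channel levels of 11.68 and 11.58 in labelled knockout and 11.91 and 11.71 in labelled control. Of the fibroblast and mesenchyme markers, 4 of 8 had a mean below 0, from Pdgfrb at -0.32 ± 0.33 (-0.56 and -0.09) upward, and Dcn and Lum, also counted among the proteoglycans, were among the 4 above 0. Their median was 0.01, and mean levels were 14.21 to 14.27 in labelled knockout and 14.19 to 14.25 in labelled control. Urothelial markers, which define the ureter epithelium, were all present, and 8 of 8 had a mean above 0. Their mean levels were 11.26 to 11.27 in labelled knockout and 10.36 to 10.67 in labelled control, and Upk3a, Upk1a and Upk1b passed as higher. Smooth muscle markers had medians of -0.02 on replicate 1 and 0.28 on replicate 2 (mean levels 10.89 to 11.06 against 10.67 to 11.21), and endothelial markers 0.15 and -0.20 (11.20 to 11.39 against 11.32 to 11.39). Skeletal muscle markers had medians of 0.83 on replicate 1 and 0.08 on replicate 2 (9.09 to 9.57 against 8.78 to 9.02). Neuron and glia markers had medians of -0.59 and 0.63 (10.95 and 11.52 against 11.53 and 11.0). Of the 5 tested, 4 were brighter in Cy5 on both arrays, as were Col1a2 and 5454 of all 20104 genes. The part of any of these in the collagen values was not tested.

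The targeted gene Smad4 read -0.58 on replicate 1 and -0.08 on replicate 2. Whether its probe lies in the floxed part was not determined, so it does not check the labels. Between 66.6% and 69.0% of spots were well above background per channel, and no spot was saturated. Precision is set by having only 2 arrays.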

How the data were processed

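The deposited scanner files give each spot's intensity as a mean signal with a median local background in both channels, made with Agilent Feature Extraction (version 10.7.3.1 in the submitters' processing notes); processed intensity from the scanner software, background-subtracted and dye-normalised per the file headers, served as an alternative. The authors' deposited value table holds a score, namely signed folds of median 1 whose scaling and centring are unknown here. On a signed log2 scale it correlated with the processed red to green ratio (r of 0.822 on replicate 1, -0.739 on replicate 2), so that by the labels' dyes it is control over knockout.

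Mean signals were corrected with normexp (offset 50), then normalised by loess within each array, control spots at weight 0. Control spots and outlier spots (3.52% and 3.66%) were left out. The 4 spots of a probe were averaged, with a median SD of 0.063 and 0.070 on the arrays. Kept probes (26522 of 39429) had 2 or more spots well above background in 1 genotype's channels on each array, and a gene was its brightest kept probe. Both log2 ratios were tested against 0 in limma 3.58.1 under R 4.3.3, two-sided, with 1 residual and 9.21 prior degrees of freedom. Steps were tested on simulated data. Names came from the files, updated through RefSeq (GRCm38.p6). Accessions named 28328 probes, current symbols 3400 and older symbols 243, while the array's own name stayed for 7458. Probe coordinates are those of the mm9 design; exons and untranslated regions were not used here. Plots used matplotlib 3.10.9.

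The genes and lists were chosen with earlier results of these data known. Channel levels and the mean ratio with its SD are given for Col1a1, Col1a2, Col3a1, Col4a1 and Col4a2. The same holds for the 12 collagen genes with the largest absolute mean among those with 1 sign on both arrays. From other lists, up to 3 genes with the largest absolute mean are named, mostly by ratio alone. Serpinh1, Lox, Lum, Agrn and Hapln1 are named beside them. Smooth muscle, endothelial, skeletal muscle, and neuron and glia markers are summarised without naming genes. Alternatives changed the background correction, normalisation, filter, probe summary, values, pairing and variance prior, or left out an array.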

Additional observations from a re-analysis of the deposited data

How the results depend on the processing

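No collagen chain gene passed limma's test in the 10 alternatives with a test, where the lowest adjusted p of any was between 0.178 and 1.00. Their median, -0.18, moved beyond its spread between arrays only with Agilent's processed signals (-0.20) and the authors' deposited values (-0.20), and was otherwise between -0.17 and -0.19, also without replicate 1 (-0.17) or replicate 2 (-0.19). Below 0 on both arrays lay 20 to 26 collagen genes, beside 17.3% to 26.4% of all genes, and 15 did so in every setting. Collagen genes with an unadjusted p under 0.05, 11, were 6 with processed signals or deposited values, 0 with median centring and 8 to 13 elsewhere, and Col8a2 read -0.09 under the stricter filter. Over all genes the number called, 66, was 255 with processed signals, 115 with no background correction, 131 at offset 0, 29 with a stricter filter, 191 with the deposited values and 157 with a trended prior. It was 0 with median centring (347 at unadjusted p under 0.05) and 0 without the filter (1097), and with 4 unpaired channels and no replicate block it was 52. Without replicate 1, Col1a2 read 0.10, Col2a1 0.38 and Col22a1 0.08; without replicate 2, Col4a6 read -0.15. A single array leaves no residual degree of freedom, so no count was made there. No paired analysis was possible beyond this because each ratio already pairs both samples of an array.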
